A study of Mus musculus with 20 samples.

Results

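The response of abdominal skin of floxed control mice to topical imiquimod was measured across 22180 genes in 10 of the 20 Affymetrix arrays of a study of the RNA-binding protein Zfp36. The 10 arrays were chosen by their titles: 5 mice labelled as imiquimod-treated and 5 labelled as mock-treated, 1 array a mouse. Both groups carried the genotype zfp36 fl/fl, floxed alleles with no Cre listed to delete them. The remaining 10 arrays came from zfp36 fl/fl K14 cre mice, in which the keratin 14 promoter drives Cre in basal keratinocytes, again 5 mock-treated and 5 imiquimod-treated. Imiquimod was given on 5 consecutive days and skin was taken 4 hours after the last application. Knockout and control mice were littermates. What the mock groups received, and the age, sex and strain of the mice, are not given in the labels. Whole skin was extracted, so each value averages epidermis, dermis, follicles, fat and infiltrating cells, and fewer cells of a type and less RNA per cell cannot be told apart.

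Imiquimod is an agonist of the endosomal receptor Toll-like receptor 7, which signals through the adaptor Myd88 to NF-kB and interferon regulatory factors. Repeated topical use on mouse skin gives an inflammation with epidermal thickening and scaling that is widely used as a model of psoriasis, in which IL-36, IL-23 and IL-17 cytokines act on keratinocytes. Keratinocytes that differentiate in such skin switch on stress keratins, antimicrobial peptides and the envelope proteins and lipids from which the outer barrier is built.

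Values are given as deposited, on a scale taken as log2, so that a difference of 1 is a 2-fold change. Each was tested with limma over all 20 arrays with 1 mean per group, and a gene was called when its p-value adjusted by the Benjamini-Hochberg method over the 22180 genes was below 0.05. Errors are standard errors (SE) of the fitted difference, n = 5 arrays a group, and per-array values are listed in the order of replicates 1 to 5. Skin-defining genes were high on the mock arrays, with means of 10.74 for the basal keratin Krt14, 11.74 for the suprabasal keratin Krt10 and 10.94 for the dermal collagen Col1a1.

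The hair follicle separated the arrays in a way that followed the treatment only in part. A hair mean was taken over 28 hair shaft genes, which were keratins and keratin-associated proteins together with Padi4 and Tchh. This mean was 10.02, 10.09, 9.21, 9.93 and 5.87 on the mock arrays and 5.91, 5.61, 5.28, 5.85 and 9.13 on the imiquimod arrays. Replicate 5 of each group thus lay with the other group, so the groups overlapped. Among the other control arrays every mock value lay above every imiquimod value, so the hair mean was partly tied to the treatment. On the same arrays the mean of the 6 Lce3 envelope genes was 4.71, 4.5, 4.16, 4.56 and 4.58 on the mock arrays and 8.32, 8.36, 9.17, 8.09 and 7.14 on the imiquimod arrays. Both replicates 5 followed their labels there, with imiquimod replicate 5 the lowest of its group. The part of this hair difference in the results below was not tested. Counts over all genes, and those of some lists, are therefore also given with both replicates 5 left out and with the hair mean as a covariate in the fit. Being partly tied to the treatment, the hair covariate can also absorb part of the imiquimod difference itself. How much it absorbed was not tested.

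**Figure D1:**
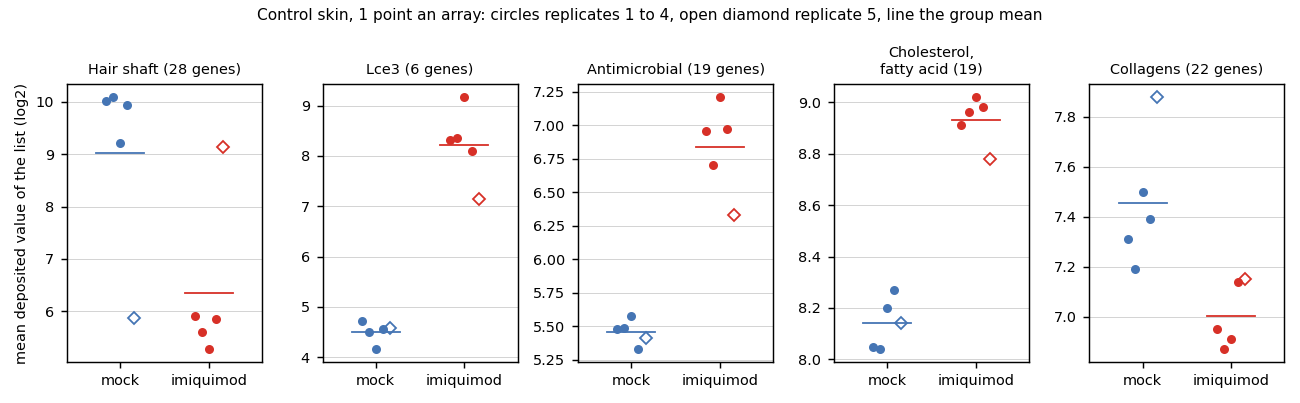
Mean deposited value (log2) of 5 gene lists on each of the 10 control arrays, mock in blue and imiquimod in red, with replicate 5 of each group as an open diamond and the group mean as a line. Hair shaft genes of mock replicate 5 (5.87) and imiquimod replicate 5 (9.13) lie with the opposite group, whereas the other lists separate the 5 mock from the 5 imiquimod arrays. For the collagens the gap is narrow, with a lowest mock value of 7.19 and a highest imiquimod value of 7.15.

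In control skin 1435 genes rose and 969 fell, which is 6.47% and 4.37% of all genes tested. The median difference over all genes was -0.004. At least 2-fold changes were seen for 347 of the genes that rose and 99 of those that fell, and at least 8-fold changes for 36 and 4. The 5 imiquimod arrays did not overlap the 5 mock arrays for 1041 of the rises and 454 of the falls. Of the genes called, 59.7% were higher. This share was 70.9% when each array was centred on its own median and 54.1% with quantile normalization. Without both replicates 5 the counts were 1665 and 1675, of which 1295 and 853 were shared with the full fit, and with the hair covariate they were 1150 and 824, with 900 and 395 shared. The number of falls was 510 without imiquimod replicate 3, 632 without mock replicate 3 and 641 without imiquimod replicate 1.

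Largest of the rises named here was that of Serpinb3a, a clade B serpin that inhibits proteases in squamous epithelium. Its values were 2.52, 2.42, 3.0, 2.32 and 2.4 in mock and 8.89, 8.77, 9.37, 8.96 and 7.85 in imiquimod skin, a difference of 6.24 ± 0.33, 75.4-fold higher (adjusted p = 1.87e-10). Every imiquimod array stood more than 4 log2 units above every mock array. The next was the stefin Csta3, an inhibitor of cysteine proteases, at 2.62, 2.76, 2.49, 3.13 and 2.79 in mock and 8.6, 8.03, 9.75, 8.43 and 6.33 in imiquimod skin, a difference of 5.47 ± 0.45, 44.3-fold higher (adjusted p = 5.14e-08). The third was Lce3e, a late cornified envelope protein, at 3.24, 2.65, 2.98, 2.75 and 3.33 in mock and 8.29, 8.08, 9.22, 8.38 and 7.01 in imiquimod skin, a difference of 5.21 ± 0.28, 36.9-fold higher (adjusted p = 2.14e-10). Every imiquimod array of Csta3 and Lce3e lay more than 3 log2 units above every mock array, with imiquimod replicate 5 the lowest of its group in both.

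The 20 largest rises among genes whose groups did not overlap ranged from 3.78 (Krt16) to 6.24. They held the stefins Csta3, Stfa1, Stfa2l1, Stfa3 and Cstdc6, the envelope genes Lce3d, Lce3e, Lce3f, Sprr1b, Sprr2e and Rptn, the stress keratins Krt6b and Krt16 and the defence genes Defb3 and S100a8. The cytokine Il1f6 was among them too. The rest were enzymes and secreted or membrane proteins: Gsdmc, a gasdermin, rose by 4.31 ± 0.29, Aox4, an aldehyde oxidase, by 4.31 ± 0.39 and Chil1, a chitinase-like protein, by 4.13 ± 0.19. In all 20 of these genes imiquimod replicate 5 was the lowest imiquimod array. In 19 of them replicate 3 was the highest, with a tie for Sprr1b, which read 10.02 on replicates 3 and 4. Over all 1435 rises replicate 5 was the lowest imiquimod array in 73.9%, against 24.1% of all genes tested. Replicate 3 was the highest in 30.5% of these rises, against 21.0% of all genes tested.

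**Figure D2:**
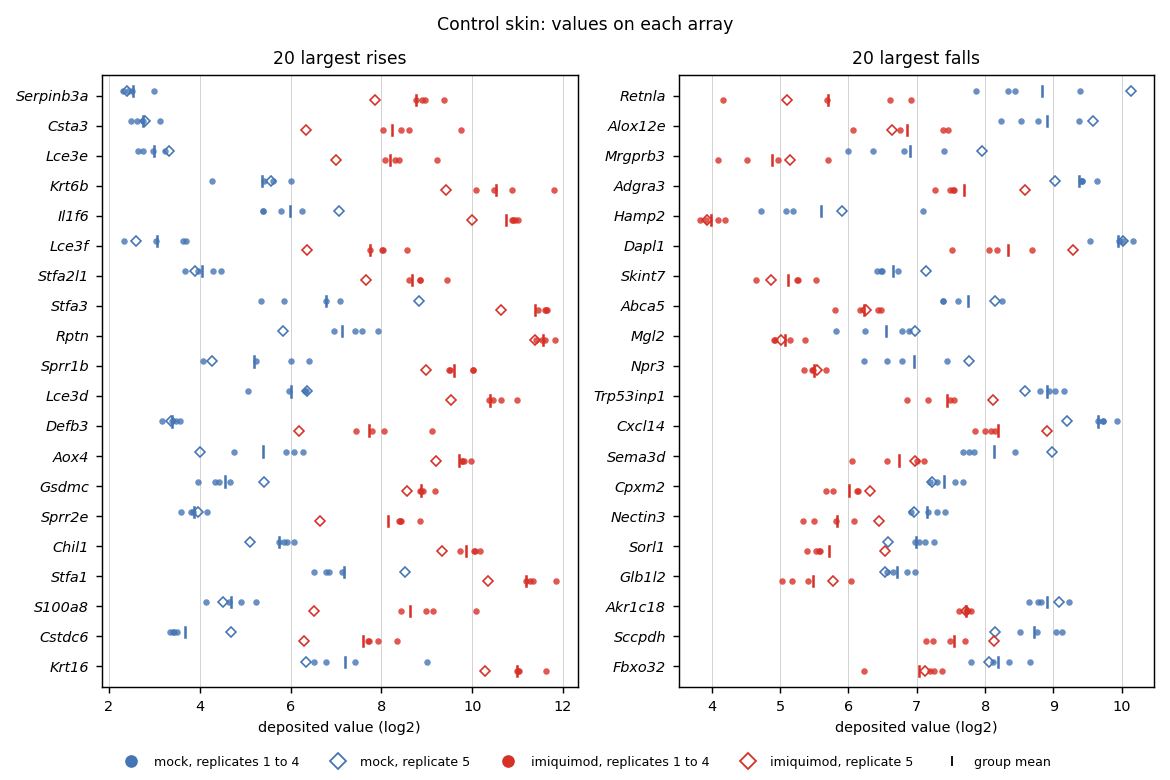
Deposited values (log2) of the 20 largest rises and the 20 largest falls, ranked as described in the text, on each of the 10 control arrays, mock in blue and imiquimod in red, open diamonds marking replicate 5 and vertical ticks the group means. By this choice the groups do not overlap for any gene shown, and imiquimod replicate 5 is the lowest red point in all 20 rises.

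**Figure D3:**
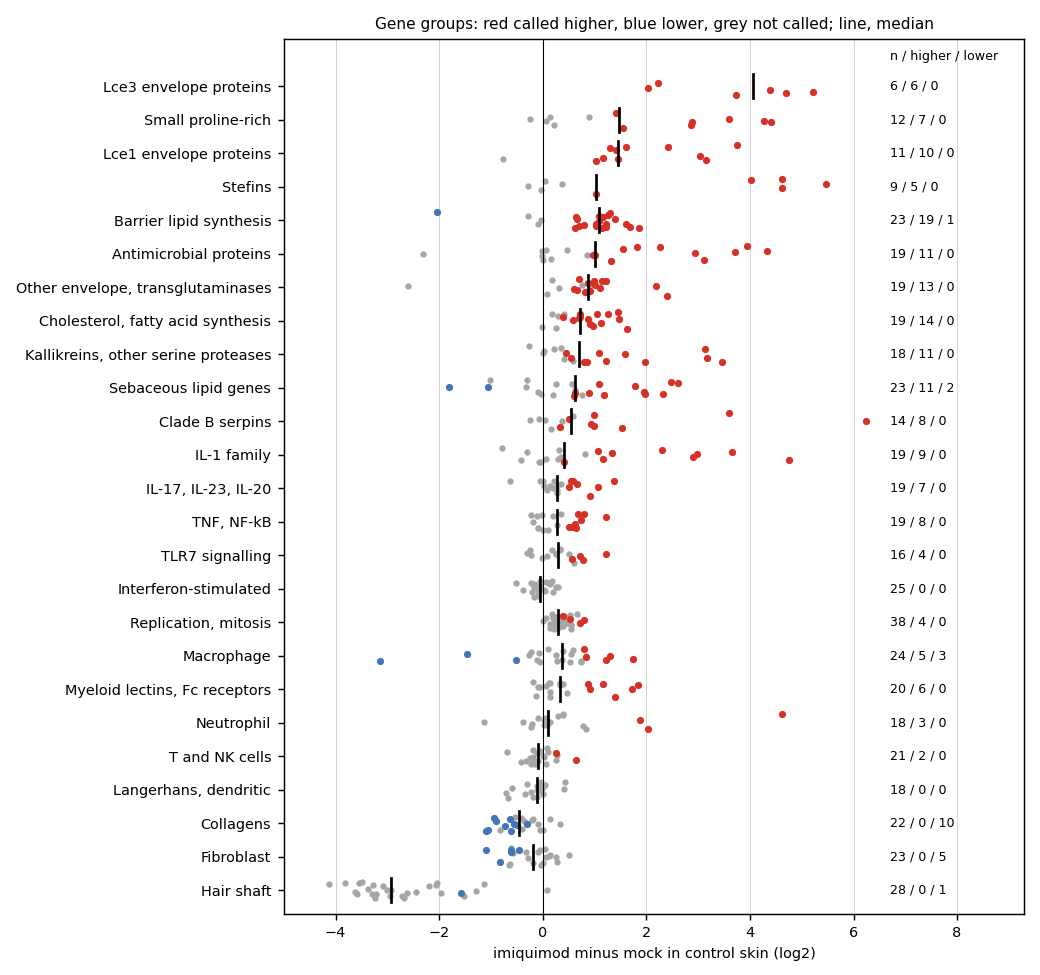
Difference between imiquimod and mock arrays (log2) for every measured member of 25 gene groups, 1 point a gene, with red points called higher, blue points called lower, grey points not called and a black line at the group's median; points are spread vertically only for legibility, and the numbers at the right give members measured, higher and lower. Envelope, antimicrobial and lipid groups lie to the right of 0, collagens to the left, and the hair shaft group far to the left with 1 call.

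The counts of each list stand against 6.47% of all genes higher and 4.37% lower, and a count of 1 or 2 in about 20 genes, as for T and NK cell, muscle, adipocyte and endothelial genes, is near that share. The receptor for imiquimod itself was low, and no difference was detected. Tlr7 was 4.41, 4.3, 4.92, 4.14 and 5.21 in mock and 4.78, 5.26, 4.28, 4.66 and 4.47 in imiquimod skin, a difference of 0.09 ± 0.23 (adjusted p = 0.87). The groups overlapped over most of their range. Of 16 genes of Toll-like receptor signalling 4 rose and none fell, with a median of 0.29. The inhibitory kinase Irak3 rose by 1.23 ± 0.13, the ubiquitin ligase Traf6 by 0.77 ± 0.12 and the adaptor Myd88 by 0.72 ± 0.13. The call of Tlr2 (0.56 ± 0.16) was lost in 6 of the 10 fits that left out an array (mock replicates 1, 2 and 4, imiquimod replicates 1, 2 and 3), with adjusted p up to 0.08, and with the hair covariate (adjusted p = 0.17). Without both replicates 5 the list had 8 rises and 1 fall. With the hair covariate it had 3 rises and a median of 0.04.

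No interferon response was detected. None of 25 interferons and interferon-stimulated genes was called (1 rise without mock replicate 5, and 1 fall with the hair covariate, Usp18 at -0.8 with adjusted p = 0.0499), their median was -0.06, and their differences ran from -0.52 (Usp18) to 0.30 (Oas2). The type I interferon gene Ifnb1 read 2.86, 2.85, 2.66, 2.75 and 2.86 in mock and 2.77, 2.84, 2.7, 2.87 and 2.78 in imiquimod skin, a difference of 0.0 ± 0.07. Isg15, a ubiquitin-like protein induced by interferon, read 4.65, 4.58, 4.66, 4.26 and 4.66 in mock and 4.58, 4.33, 4.26, 4.47 and 4.38 in imiquimod skin, a difference of -0.16 with adjusted p = 0.61. In both genes the groups overlapped, and Ifnb1 stood near the bottom of the measured range.

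Cytokines of the IL-1 family, which start inflammation from the epidermis, were among the largest rises. Of 19 members 9 rose and none fell, with a median of 0.41. The list had 6 rises with the hair covariate, and without both replicates 5 it had 10 rises and 1 fall. Il1f6, which encodes IL-36 alpha, was 5.4, 5.39, 5.78, 6.26 and 7.07 in mock and 11.01, 10.93, 10.89, 10.88 and 10 in imiquimod skin, a difference of 4.76 ± 0.29, 27.1-fold higher (adjusted p = 1.16e-09). All imiquimod arrays lay above the highest mock array by more than 2 log2 units. The related agonists Il1f8 (IL-36 beta) and Il1f9 (IL-36 gamma) rose by 3.66 ± 0.32 and 2.98 ± 0.33, and Il1a, a cytokine stored in keratinocytes, by 2.9 ± 0.18. The antagonists rose as well: Il1f5, the IL-36 receptor antagonist, by 2.3 ± 0.21 and Il1rn, the IL-1 receptor antagonist, by 1.06 ± 0.12. Il1f5, Il1f6, Il1f8, Il1f9, Il1f10 and Il1rn are neighbours on chromosome 2, of which 5 of 6 rose and Il1f10 (-0.78, adjusted p = 0.0784) was not called. Il1f10 was called lower without mock replicate 5 (-1.02, adjusted p = 0.01), without imiquimod replicate 5 (-0.91, 0.042) and without both (-1.14, 0.00397).

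Il1b stood apart from its relatives. Its values were 5.0, 5.3, 5.42, 4.87 and 5.54 in mock and 6.08, 5.84, 6.46, 6.15 and 5.64 in imiquimod skin, a difference of 0.81 ± 0.41, 1.75-fold higher (adjusted p = 0.236), so the groups did not overlap and the gene was not called. In a fit on the 10 control arrays alone, where the spread of the knockout arrays does not enter, the same difference had adjusted p = 0.0103. The gene therefore changes its call with the arrays that set the spread.

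The defining cytokines of the IL-17 axis moved little. Il17a was 3.89, 3.6, 3.84, 3.85 and 4.1 in mock and 3.94, 4.13, 4.61, 4.45 and 3.93 in imiquimod skin, a difference of 0.36 ± 0.15 (adjusted p = 0.147). Il22, a cytokine of the same T cells, read 1.76, 1.96, 1.85, 1.82 and 1.71 in mock and 2.08, 1.85, 1.72, 1.8 and 1.82 in imiquimod skin, a difference of 0.03 ± 0.09 (adjusted p = 0.884), at the bottom of the measured range. Il23a, the subunit particular to IL-23, was 4.15, 4.1, 3.77, 4.18 and 4.3 in mock and 4.73, 4.61, 4.91, 4.7 and 4.46 in imiquimod skin, a difference of 0.58 ± 0.16, 1.5-fold higher (adjusted p = 0.0207). The Il17a and Il22 arrays overlapped while those of Il23a did not, but the Il23a call was lost without mock replicate 3 (adjusted p = 0.0641) or imiquimod replicate 3 (0.0651).

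Over the whole list of IL-17, IL-23 and IL-20 genes 7 of 19 rose and none fell, with a median of 0.28. The IL-22 binding protein gene Il22ra2 rose by 1.38 ± 0.23, the keratinocyte cytokine Il20 by 1.06 ± 0.17 and the receptor chain Il17rc by 0.91 ± 0.14. Il17f rose by 0.54 ± 0.16, and its adjusted p reached 0.102 without imiquimod replicate 1, with the call also lost without mock replicates 2, 3 or 4 or imiquimod replicates 2, 3 or 5. The count was 4 without mock replicate 3, without imiquimod replicate 3 or with the hair covariate.

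Of 19 genes of TNF and NF-kB signalling 8 rose and none fell, with a median of 0.27. Nfkbiz, an inducible nuclear cofactor of NF-kB, was 6.88, 6.94, 7.28, 6.95 and 7.27 in mock and 8.48, 8.48, 8.32, 8.22 and 7.93 in imiquimod skin, a difference of 1.22 ± 0.13, 2.33-fold higher (adjusted p = 1.45e-06). The subunit Rel rose by 0.8 ± 0.1, the inhibitor of apoptosis Birc3 by 0.73 ± 0.13 and the receptor Tnfrsf1a by 0.56 ± 0.1. Tnf itself read 5.92, 5.61, 6.01, 5.72 and 5.76 in mock and 6.15, 6.32, 6.36, 6.03 and 5.91 in imiquimod skin, a difference of 0.35 ± 0.14 (adjusted p = 0.136), with overlapping groups. The count was 5 with the hair covariate and 5 without mock replicate 1 or imiquimod replicates 1, 2 or 3.

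Genes for proteins that destroy or silence cytokine messages changed singly. Zc3h12a, an endoribonuclease that cuts such messages, was 5.94, 5.74, 6.24, 5.92 and 6.42 in mock and 7.59, 7.57, 7.36, 7.68 and 6.87 in imiquimod skin, a difference of 1.36 ± 0.14, 2.57-fold higher (adjusted p = 1.67e-06), with no overlap. Zfp36, the floxed gene, was 7.28, 7.45, 7.74, 7.22 and 7.61 in mock and 8.04, 8.4, 7.99, 7.89 and 7.68 in imiquimod skin, a difference of 0.54 ± 0.51, 1.45-fold higher (adjusted p = 0.603). Its groups overlapped only between imiquimod replicate 5 and mock replicate 3, and its SE includes the knockout arrays. On the 10 control arrays alone the difference had adjusted p = 0.033. Zc3h12c rose by 0.76 ± 0.15 and Rc3h1, the RNA-binding protein roquin-1, fell by 0.49 ± 0.09, which made 2 rises and 1 fall among 8 genes of the list.

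Chemokines changed gene by gene rather than as a class. Ccl20, which draws CCR6-bearing cells, was 5.36, 5.75, 5.95, 5.58 and 5.71 in mock and 7.21, 7.65, 7.17, 7.6 and 6.95 in imiquimod skin, a difference of 1.65 ± 0.13, 3.13-fold higher (adjusted p = 3.2e-08). Cxcl13, a B cell chemokine, was 5.12, 5.37, 5.82, 5.24 and 5.08 in mock and 7.66, 8.21, 8.67, 8.56 and 7.43 in imiquimod skin, a difference of 2.78 ± 0.35, 6.87-fold higher (adjusted p = 1.43e-05). Neither gene had overlapping groups. The neutrophil chemokine Cxcl1 rose by 0.9 ± 0.22. In the other direction Cxcl14, a constitutive epidermal chemokine, fell by 1.45 ± 0.33, a call lost with the hair covariate (adjusted p = 0.0785), and Ccl8 fell by 0.92 ± 0.2. Among 20 genes of the CXC list 4 rose and 2 fell, and among 25 of the CC list 3 rose and 2 fell. The CC list had 1 rise without mock replicates 1, 2 or 4, without imiquimod replicates 1, 3 or 4 or with the hair covariate, and Ccl20 passed in each of these fits. Falls numbered 1 in the CXC list when any 1 array but mock replicate 5 was left out, and 1 in the CC list without mock replicates 3, 4 or 5 or any 1 imiquimod array.

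Many antimicrobial genes rose. Of 19 measured, 11 rose and none fell, with a median of 1.0, and the count of rises was 11 in each fit that left out 1 array, in the fit without both replicates 5 and in that with the hair covariate. S100a8, a subunit of calprotectin, was 4.9, 5.24, 4.65, 4.15 and 4.52 in mock and 9.14, 8.43, 10.08, 8.99 and 6.52 in imiquimod skin, a difference of 3.94 ± 0.45, 15.3-fold higher (adjusted p = 4.59e-06). The highest mock array lay below the lowest imiquimod array, replicate 5, by more than 1 log2 unit. The partner subunit S100a9 rose by 3.71 ± 0.4, the beta-defensins Defb3 and Defb14 by 4.32 ± 0.34 and 2.94 ± 0.24 and the acute-phase protein Saa3 by 3.11 ± 0.5. Lcn2, which sequesters bacterial siderophores, rose by 2.27 ± 0.4 and the peptidoglycan recognition protein Pglyrp3 by 1.81 ± 0.19. S100a7a differed by -2.32 (adjusted p = 0.0901), and it was called lower without mock replicate 5 (-3.04, adjusted p = 0.0124), without imiquimod replicate 5 (-2.96, 0.0197) and without both (-3.68, 0.00108). Neutrophils also make S100a8, S100a9 and Lcn2, and of 18 neutrophil genes, described further on, Cxcr2 and Itgam were higher while Ly6g was not called, and their part in these rises was not tested.

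Keratins changed in both directions. Krt6b, a keratin of wounded and hyperproliferative epidermis, was 6.01, 4.27, 5.62, 5.42 and 5.58 in mock and 10.48, 10.08, 11.79, 10.87 and 9.42 in imiquimod skin, a difference of 5.15 ± 0.38, 35.5-fold higher (adjusted p = 1.43e-08). Krt16, its type I partner, was 7.41, 6.78, 9.0, 6.51 and 6.33 in mock and 10.99, 11.03, 11.63, 11 and 10.28 in imiquimod skin, a difference of 3.78 ± 0.44, 13.7-fold higher (adjusted p = 4.78e-06). Of 6 stress keratins 4 rose and none fell, with a median of 1.19. Krt75, a follicle keratin of that list, differed by -1.83 (adjusted p = 0.0921) and was called lower without mock replicate 5 (adjusted p = 0.0065), imiquimod replicate 5 (0.0288) or both (-2.92, 0.000767). Neither Krt6b nor Krt16 had overlapping groups, though mock replicate 3 had a Krt16 value of 9.0, the highest of its group. Krt6a rose by 1.48 ± 0.43, with the call lost without mock replicates 4 or 5 or imiquimod replicates 1, 3 or 4 (adjusted p up to 0.0918) and on the 10 control arrays alone (0.0523). Krt17, often named with these keratins, differed by 0.04 ± 0.23 (adjusted p = 0.954). Of 11 epidermal keratins 4 rose and 3 fell: Krt1 rose by 2.63 ± 0.31, Krt78 by 1.77 ± 0.27, Krt14 by 0.85 ± 0.12 and Krt10 by 0.67 ± 0.16, and Krt15, a keratin of basal and bulge cells, fell by 1.16 ± 0.29, Krt23 by 0.69 ± 0.14 and Krt77 by 1.3 ± 0.33. The Krt77 call was lost without imiquimod replicate 3 (adjusted p = 0.0503), and that of Krt10 with the hair covariate (0.116).

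The small proline-rich proteins, cross-linked spacers of the cornified envelope, were divided by gene. Of 12 measured, 7 rose, none fell and the median was 1.48. Sprr1b was 6.01, 6.41, 4.07, 5.23 and 4.27 in mock and 9.49, 9.51, 10.02, 10.02 and 8.99 in imiquimod skin, a difference of 4.41 ± 0.36, 21.2-fold higher (adjusted p = 5.98e-08). Sprr2e was 3.86, 3.58, 3.82, 4.17 and 3.97 in mock and 8.43, 8.39, 8.86, 8.42 and 6.64 in imiquimod skin, a difference of 4.27 ± 0.28, 19.3-fold higher (adjusted p = 2.2e-09). The arrays of the groups were apart in both genes. Sprr2d rose by 3.59 ± 0.42, Sprr2b by 2.88 ± 0.32, Sprr2g by 2.86 ± 0.38 and Sprr2h by 1.41 ± 0.3. In contrast Sprr2k was 3.94, 4.15, 4.05, 3.99 and 3.74 in mock and 4.19, 3.98, 3.98, 4.44 and 3.94 in imiquimod skin, a difference of 0.13 ± 0.15 (adjusted p = 0.698). Sprr1a, Sprr3 and Sprr4 differed by 0.22, 0.06 and -0.24 and were not called. Their mock means were 10.6, 2.57 and 9.98, so Sprr1a and Sprr4 were already high in mock skin and Sprr3 was near the bottom of the measured range. Sprr2f differed by 0.9 ± 0.36 (adjusted p = 0.126), and without imiquimod replicate 5 by 1.12 (0.046). Sprr1a had a difference of 1.12 with the hair covariate (adjusted p = 0.0357). Probes of near-identical Sprr2 copies can share signal, so the split between copies is uncertain.

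Because these neighbours responded so differently, the stretch before the transcription start of 9 of them is shown, from RefSeq on GRCm38.p6. Each reads 5′ to 3′ along the gene and ends on the base before the start, and capitals mark AP-1 motifs (TGANTCA) and TATA boxes (TATAAA), which do not overlap here, searched on both strands. The first 5 genes rose and the last 4 were not called.
Sprr1b (chr3:92438780-92438929, minus strand): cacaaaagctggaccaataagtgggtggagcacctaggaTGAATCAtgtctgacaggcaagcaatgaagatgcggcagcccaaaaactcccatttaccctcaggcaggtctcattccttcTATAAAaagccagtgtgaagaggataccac
Sprr2b (chr3:92316500-92316704, plus strand): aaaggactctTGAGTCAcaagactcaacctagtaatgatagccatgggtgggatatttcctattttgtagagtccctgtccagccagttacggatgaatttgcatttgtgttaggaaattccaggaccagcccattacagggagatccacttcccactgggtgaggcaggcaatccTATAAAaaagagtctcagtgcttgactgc
Sprr2d (chr3:92338937-92339139, plus strand): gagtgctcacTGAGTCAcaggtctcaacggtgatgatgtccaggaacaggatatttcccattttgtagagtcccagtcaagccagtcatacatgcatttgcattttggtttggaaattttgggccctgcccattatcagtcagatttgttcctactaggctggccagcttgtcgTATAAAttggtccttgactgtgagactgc
Sprr2e (chr3:92351940-92352142, plus strand): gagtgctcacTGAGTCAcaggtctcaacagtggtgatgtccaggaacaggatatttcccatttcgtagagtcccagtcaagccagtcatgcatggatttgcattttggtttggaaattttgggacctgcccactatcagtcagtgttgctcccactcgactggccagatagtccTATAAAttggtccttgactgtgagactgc
Sprr2h (chr3:92385477-92385684, plus strand): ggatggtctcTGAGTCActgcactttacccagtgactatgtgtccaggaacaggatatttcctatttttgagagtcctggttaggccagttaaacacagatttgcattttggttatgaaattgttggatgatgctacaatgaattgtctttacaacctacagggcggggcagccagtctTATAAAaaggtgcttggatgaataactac
Sprr2f (chr3:92364980-92365186, plus strand): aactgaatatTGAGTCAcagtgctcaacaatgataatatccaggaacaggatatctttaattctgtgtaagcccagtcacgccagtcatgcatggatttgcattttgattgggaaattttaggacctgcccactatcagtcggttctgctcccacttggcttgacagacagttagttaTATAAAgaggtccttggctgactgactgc
Sprr2k (chr3:92432376-92432581, plus strand): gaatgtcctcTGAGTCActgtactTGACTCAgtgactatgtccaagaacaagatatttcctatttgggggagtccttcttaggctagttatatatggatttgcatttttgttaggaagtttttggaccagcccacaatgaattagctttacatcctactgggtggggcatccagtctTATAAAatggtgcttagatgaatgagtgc
Sprr1a (chr3:92485882-92486037, minus strand): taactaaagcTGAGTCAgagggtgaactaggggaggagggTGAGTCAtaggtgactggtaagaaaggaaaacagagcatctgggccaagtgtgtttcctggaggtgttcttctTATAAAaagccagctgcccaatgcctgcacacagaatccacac
Sprr3 (chr3:92458721-92458870, minus strand): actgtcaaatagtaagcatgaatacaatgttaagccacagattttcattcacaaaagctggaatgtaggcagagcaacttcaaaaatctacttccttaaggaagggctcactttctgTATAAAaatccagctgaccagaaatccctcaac

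Windows of 250 bases before the start were held for 10 of the 12 genes, and an AP-1 motif was found in 8 of them and a TATA box in 9. Over 16990 genes with such a window the shares were 6.48% and 11.9%. In the 6 Sprr2 windows an AP-1 motif began 193 to 198 bases before the start and the TATA box 29 bases before it. Sprr2k and Sprr2f hold both motifs at those positions as Sprr2e does, so the presence of these letters did not separate the genes that rose from those not called. Among 279 genes with a window that rose at least 2-fold 14.7% had the AP-1 motif, and among 68 that fell at least 2-fold 5.88% did. None of the 6 Lce3 or 10 Lce1 windows had it. Of the other motifs searched on both strands, TTGNNCAA for C/EBP factors was present in 8.24% of the 279 windows and 5.34% of all, the NF-kB motif in 20.8% and 19.5%, CACNCCAC as a sterol element in 5.02% and 5.13%, CCACCC for KLF factors in 36.6% and 29.9%, and AACCGGTT for Grainyhead factors in 0% and 0.165%.

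Next to them lie the late cornified envelope genes, whose proteins join the envelope at its last stage. All 6 measured Lce3 genes rose, with a median of 4.06 and differences from 2.04 (Lce3a) to 5.21 (Lce3e), and all 6 were called in every fit that left out 1 array. Of 11 Lce1 genes 10 rose, with a median of 1.46. Lce1e rose by 3.75 ± 0.35, Lce1k by 3.16 ± 0.29, Lce1f by 3.03 ± 0.3 and Lce1h by 2.41 ± 0.29, whereas Lce1m differed by -0.77 and was not called. With the hair covariate 7 Lce1 genes rose and 1 fell. With the dimmest 30% of genes left out 6 rises remained, since dim Lce1 genes were then not tested.

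Filaggrin (Flg), the matrix protein whose breakdown moisturizes the outer layers, was 7.82, 8.09, 7.76, 8.53 and 8.89 in mock and 11.22, 10.96, 11.1, 10.98 and 10.53 in imiquimod skin, a difference of 2.74 ± 0.28, 6.68-fold higher (adjusted p = 8.77e-07). Its relatives Rptn (repetin) and Hrnr (hornerin) rose by 4.41 ± 0.31 and 2.56 ± 0.36. The groups were apart for Flg on every array. Flg2 differed by -0.3 ± 0.3 and was not called, so 3 of 7 fused S100 genes rose and none fell. Of these 7, Tchh, Tchhl1 and Crnn differed by -3.38, -3.34 and -2.87. None of them was called in the full fit. Tchh, trichohyalin of the inner root sheath and itself part of the hair mean, read 8.02 on mock replicate 5 and 11.52 on imiquimod replicate 5. All 3 were called lower without mock replicate 5 (Tchh -4.18, adjusted p = 0.0181, Tchhl1 -4.41, 0.0138, Crnn -3.83, 0.00945), and the list also had 3 falls without imiquimod replicate 5 and without both. Flg2 was called lower with the hair covariate (-0.86, adjusted p = 0.0447).

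Other envelope genes followed, with 13 of 19 higher, none lower and a median of 0.88. With the hair covariate 10 rose and the median was 0.56, and without both replicates 5 there were 14 rises and 1 fall. The corneocyte nuclease Trex2 rose by 2.39 ± 0.18, the caspase Casp14 by 2.19 ± 0.25, Cnfn (cornifelin) by 1.15 ± 0.21 and the cross-linking enzyme Tgm1 by 0.7 ± 0.14. Padi3, a deiminase that also acts in the hair follicle, differed by -2.6 (adjusted p = 0.0884), and it was called lower without mock replicate 5 (-3.4, adjusted p = 0.012), imiquimod replicate 5 (-3.23, 0.0252) or both (-4.04, 0.00169). Ivl, involucrin, rose by 1.23 ± 0.32, a call lost with the hair covariate (adjusted p = 0.0557). Loricrin (Lor), the main envelope protein, was 8.94, 9.19, 9.44, 9.35 and 10.81 in mock and 10.7, 10.88, 10.38, 10.52 and 9.91 in imiquimod skin, a difference of 0.93 ± 0.33, 1.91-fold higher (adjusted p = 0.0802). Mock replicate 5 was the highest of all mock arrays for Lor and overlapped the imiquimod group. Without it the difference was 1.25 (adjusted p = 0.00625), without imiquimod replicate 5 it was 1.07 (0.046) and without both it was 1.39 (0.00245).

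Most of these genes are neighbours in the epidermal differentiation complex of chromosome 3. Between S100a1 and S100a10 in RefSeq order 64 genes were measured, of which 34 rose (53.1%, against 6.47% of all genes) and only S100a6 fell (-0.63, adjusted p = 0.00702). Falls numbered 8 without mock replicate 5, without imiquimod replicate 5, without both and with array weights. In the fit without mock replicate 5 S100a1, S100a3, S100a7a, Prr9 (-4.29, adjusted p = 0.0119), Crnn, Tchh and Tchhl1 joined S100a6. The S100a6 call was lost with the hair covariate (adjusted p = 0.0717). The rises ran through the Sprr, Lce1 and Lce3 blocks, and of the S100 genes at the ends only S100a8 and S100a9 rose. Other families lie in clusters as well. In the stefin cluster of chromosome 16, from Csta1 to Stfa3, 8 of 11 genes rose (72.7%), in the clade B serpin cluster of chromosome 1, from Serpinb5 to Serpinb8, 6 of 10 (60.0%), and in the kallikrein cluster of chromosome 7, from Klk14 to Klk1, 8 of 24 (33.3%).

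**Figure D4:**
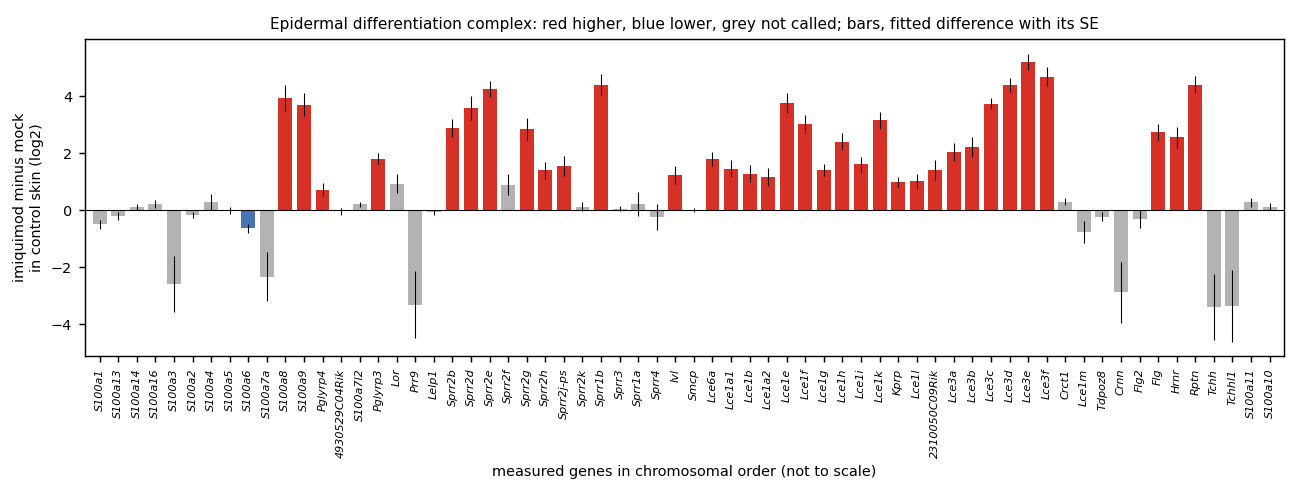
Fitted difference between imiquimod and mock arrays of control skin (log2, with its SE) for 64 measured genes of the epidermal differentiation complex in chromosomal order, red called higher, blue called lower and grey not called. Red bars run without a break from Lce6a to Lce3f, while the grey bars below -2 are S100a3, S100a7a, Prr9, Crnn, Tchh and Tchhl1, whose SEs are wide.

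Kallikreins, the proteases that cut the junctions of corneocytes before shedding, rose at one end of their cluster. Klk6 was 6.59, 6.91, 6.97, 6.5 and 5.83 in mock and 10, 10.18, 10.51, 9.98 and 9.47 in imiquimod skin, a difference of 3.47 ± 0.22, 11.1-fold higher (adjusted p = 1.79e-09). Its groups did not overlap. Klk9 rose by 3.18 ± 0.24, Klk13 by 3.14 ± 0.24, Klk8 by 1.98 ± 0.25, Klk5 by 1.22 ± 0.21 and Klk7 by 0.79 ± 0.08. The inhibitor Spink5, which restrains them, rose by 0.55 ± 0.1. None of the Klk1 and Klk1b genes of the same cluster was called, with differences from -0.07 to 0.27. Over the list of kallikreins and other epidermal serine proteases 11 of 18 rose and none fell, with a median of 0.69.

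Protease inhibitors included the largest rises named here. Of 9 stefins 5 rose and none fell, among them Stfa1, Stfa2l1, Stfa3 and Csta3 with 4.03, 4.62, 4.61 and 5.47. Stfa2l1 is expressed in myeloid cells too and is also in the neutrophil list. Of 14 clade B serpins 8 rose, with a median of 0.54: Serpinb12 rose by 3.6 ± 0.43 and Serpinb6c by 1.53 ± 0.2, whereas Serpinb3c and Serpinb3d, close copies of Serpinb3a, differed by -0.07 and 0.58 and were not called. Serpinb3d was called on the 10 control arrays alone (adjusted p = 0.0399), without imiquimod replicate 5 (0.71, 0.0336) and without both replicates 5 (0.79, 0.0209). With the hair covariate 5 serpins rose. Copies of these families share sequence, so signal may be split between them.

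Some ligands of the epidermal growth factor receptor, which drives keratinocyte growth, rose. Epgn (epigen) was 6.29, 6.36, 5.94, 6.37 and 6.02 in mock and 8.52, 9.16, 9.36, 8.89 and 8.14 in imiquimod skin, a difference of 2.62 ± 0.28, 6.14-fold higher (adjusted p = 2.02e-06). Ereg (epiregulin) rose by 2.11 ± 0.28 and Hbegf by 1.44 ± 0.25. The imiquimod arrays of Epgn lay more than 1 log2 unit above the mock group. Egfr, the receptor, fell by 0.51 ± 0.14, a call lost without mock replicate 3 or imiquimod replicates 3 or 4 and with the hair covariate. Of 17 genes of the list 4 rose and Egfr was the 1 that fell, with 2 falls without mock replicate 5.

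Among transcription factors of the epidermis 7 of 32 rose and 2 fell, with 6 falls without mock replicate 5, 5 without imiquimod replicate 5 and 1 when any 1 of mock replicates 1, 3 or 4 or imiquimod replicates 1 to 4 was left out. Grhl3, a grainyhead factor of barrier formation, rose by 1.39 ± 0.14, Cebpb by 0.85 ± 0.11, Cebpd by 0.81 ± 0.13 and Klf5 by 0.52 ± 0.1. Gata3 fell by 0.72 ± 0.16, with adjusted p = 0.0677 under the hair covariate. In the list of AP-1 and immediate early genes 5 of 19 rose, among them Ier3 (1.31 ± 0.17) and Myc (0.57 ± 0.11), and 3 rose without mock replicates 3 or 5 or imiquimod replicates 1, 2, 3 or 4. At the junctions, the desmosomal cadherin Dsg1b rose by 1.71 ± 0.13 and Dsc1 by 0.77 ± 0.11, while Dsg2, a cadherin of less differentiated cells, fell by 0.97 ± 0.19. Of 21 connexin and junction genes 3 rose and 1 fell, with a median of -0.07, and 1 to 5 fell when 1 array was left out. With the hair covariate 6 of them rose, and without both replicates 5 there were 4 falls.

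Genes of cholesterol synthesis rose along the pathway. Of 19 genes of cholesterol and fatty acid synthesis 14 rose and none fell, with a median of 0.72, and 14 rose without both replicates 5. Cyp51, the demethylase of lanosterol, was 8.35, 8.36, 8.11, 8.45 and 8.21 in mock and 9.92, 9.83, 10.05, 10.16 and 9.65 in imiquimod skin, a difference of 1.63 ± 0.12, 3.09-fold higher (adjusted p = 8.98e-09). The groups were apart by more than 1 log2 unit. The entry enzyme Hmgcs1 rose by 0.88 ± 0.11, the isoprenoid enzymes Mvk, Mvd and Fdps by 0.58 ± 0.1, 0.91 ± 0.11 and 1.05 ± 0.14, and the squalene enzymes Fdft1, Sqle and Lss by 1.13 ± 0.1, 1.26 ± 0.13 and 1.47 ± 0.17. Further down the path Msmo1, Nsdhl, Sc5d and Dhcr7 rose by 1.46 ± 0.09, 0.97 ± 0.13, 0.7 ± 0.12 and 0.71 ± 0.11. Srebf2, the factor that drives these genes, rose by 0.4 ± 0.09.

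Genes for ceramides and their acids, the other barrier lipids, rose too. Of 23 genes 19 rose and 1 fell, with a median of 1.08, and 17 to 19 rose when 1 array was left out. Degs2, which makes phytoceramide, was 5.44, 5.11, 5.23, 4.98 and 5.35 in mock and 6.74, 7.37, 7.08, 7.15 and 6.22 in imiquimod skin, a difference of 1.69 ± 0.16, 3.23-fold higher (adjusted p = 3.62e-07). Elovl4, which builds ultra-long acyl chains, was 10.31, 10.58, 11.03, 10.75 and 11.16 in mock and 12.12, 12.05, 12.14, 12.17 and 11.8 in imiquimod skin, a difference of 1.29 ± 0.14, 2.45-fold higher (adjusted p = 1.59e-06). Neither had overlapping groups. The first enzyme of the path was raised in all its measured subunits, Sptlc1 by 1.02 ± 0.12, Sptlc2 by 0.62 ± 0.08 and Sptlc3 by 1.17 ± 0.25. The ceramide synthase Cers3 rose by 1.23 ± 0.1, the hydroxylase Cyp4f39 by 1.15 ± 0.12, the lipid transporter Abca12 by 1.25 ± 0.13 and the cholesterol sulfotransferase Sult2b1 by 1.39 ± 0.15.

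The lipoxygenases of the epidermis split. Alox12b and Aloxe3, which act in turn on the ceramide-bound linoleate, rose by 1.85 ± 0.29 and 1.08 ± 0.22. Alox12e, the epidermal 12-lipoxygenase, was 8.23, 8.53, 9.38, 8.77 and 9.58 in mock and 7.45, 7.38, 6.06, 6.76 and 6.63 in imiquimod skin, a difference of -2.04 ± 0.32, 4.12-fold lower (adjusted p = 0.000169). It was the 1 fall of the ceramide list and its groups did not overlap. Of 14 genes of prostaglandin and leukotriene metabolism 5 rose and 1 fell, the rises led by the phospholipase Pla2g4e (2.42 ± 0.17) and the prostaglandin E synthase Ptges (1.28 ± 0.17). The list had no fall without mock replicates 1, 2 or 4 or any 1 of imiquimod replicates 1 to 4.

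**Figure D5:**
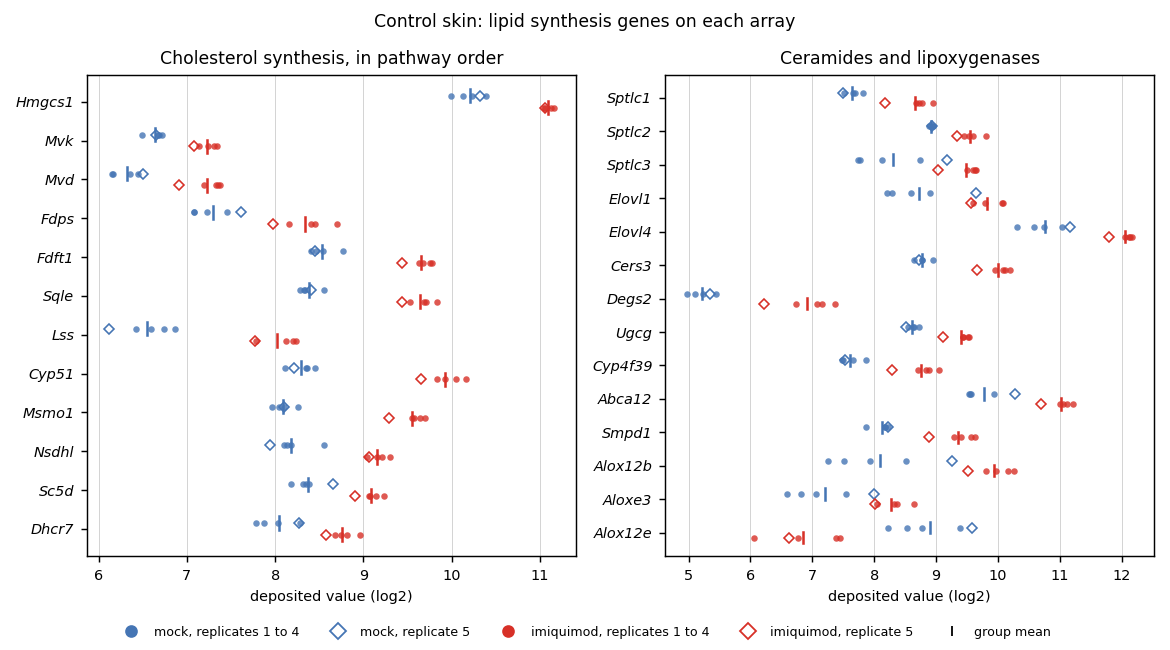
Deposited values (log2) of 12 genes of cholesterol synthesis in pathway order and of 14 genes of ceramide synthesis, transport and lipoxygenation on each of the 10 control arrays, mock in blue, imiquimod in red, open diamonds replicate 5 and ticks the group means. All genes shown lie higher with imiquimod except Alox12e, and Sptlc3 and Elovl1 are those in which mock replicate 5 reaches into the imiquimod range.

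Sebaceous lipid genes were also higher, 11 of 23 with 2 lower and a median of 0.62, the falls numbering 0 to 3 when 1 array was left out. Awat1, which makes wax esters, was 5.18, 6.22, 6.79, 6.25 and 6.46 in mock and 8.81, 9.09, 9.24, 8.8 and 8.05 in imiquimod skin, a difference of 2.62 ± 0.29, 6.14-fold higher (adjusted p = 2.92e-06). The groups did not overlap. The elongase Elovl3 rose by 2.47 ± 0.37, Dgat2l6 by 2.33 ± 0.26 and the alcohol-forming reductase Far2 by 1.97 ± 0.28. Fabp5, a fatty acid carrier also made by keratinocytes, rose by 1.79 ± 0.22. Scd3, a desaturase of the gland, fell by 1.05 ± 0.29, with the call lost without mock replicate 3 (adjusted p = 0.068), without imiquimod replicate 1 (0.063) and without both replicates 5 (0.0512). Retinoid enzymes gave 5 rises and no fall (2 without mock replicate 3, 1 without mock or imiquimod replicate 5) among 16 genes of vitamin A and D metabolism, the largest being Rdh9 (1.66 ± 0.19) and Rdh12 (1.18 ± 0.11).

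Metabolic and stress genes rose in smaller numbers. Of 19 genes of glycolysis and the hypoxia response 8 rose and none fell, with a median of 0.41, led by the glucose transporter Slc2a1 (1.55 ± 0.18). Vegfa rose by 0.76 ± 0.16 and Hif1a by 0.64 ± 0.11, and 5 genes of this list rose with the hair covariate, 12 without both replicates 5 and 14 with array weights. Of 17 genes of the oxidative stress response 5 rose and 1 fell (0 to 2 falls when 1 array was left out, 3 without both replicates 5), the rises including the cystine carrier Slc7a11 by 2.72 ± 0.59 and the glutathione transferase Gsta4 by 2.15 ± 0.31. Of 14 genes of the unfolded protein response 6 rose, among them Xbp1 (0.58 ± 0.09) and Dnajb9 (0.72 ± 0.14), and 3 rose without imiquimod replicate 2.

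Proliferation genes gave few calls. Mki67, a marker of cycling cells, was 9.14, 9.14, 7.55, 9.15 and 7.39 in mock and 8.15, 8.06, 8.63, 8.51 and 9.32 in imiquimod skin, a difference of 0.06 ± 0.38 (adjusted p = 0.956). Mock replicates 3 and 5 were the 2 lowest mock arrays, and imiquimod replicate 5 was the highest of all. Of 38 replication and mitosis genes 4 rose and none fell, with a median of 0.30, and all 38 differences were above 0, from 0.01 to 0.80, where 48.7% of all genes tested were above 0. Mcm4, a helicase subunit, rose by 0.71 ± 0.16 and Mcm3 by 0.8 ± 0.21, with the Mcm3 call lost without mock replicate 3 (adjusted p = 0.058) and without both replicates 5 (0.0795). The median was 0.08 without both replicates 5 and 10 members rose with the hair covariate. The count of rises was 1 without mock replicate 3, 2 without imiquimod replicate 3 and 7 without mock replicate 4.

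Myeloid genes changed in both directions. Adgre1, which encodes the macrophage marker F4/80, was 6.01, 6.21, 6.96, 6.51 and 7.36 in mock and 8.38, 8.71, 8.32, 8.58 and 7.8 in imiquimod skin, a difference of 1.75 ± 0.25, 3.36-fold higher (adjusted p = 7.85e-05). Retnla, a secreted product of alternatively activated macrophages, was 8.33, 7.86, 9.39, 8.44 and 10.13 in mock and 6.61, 6.91, 4.16, 5.69 and 5.1 in imiquimod skin, a difference of -3.14 ± 0.46, 8.79-fold lower (adjusted p = 0.000104). Mgl2, a lectin of dermal macrophages and dendritic cells, was 5.81, 6.79, 6.89, 6.24 and 6.98 in mock and 5.15, 4.91, 5.37, 4.92 and 5.01 in imiquimod skin, a difference of -1.47 ± 0.25, 2.77-fold lower (adjusted p = 0.000394). All 3 genes had groups without overlap. Ms4a7 and the scavenger receptor Marco rose by 1.29 ± 0.24 and 1.22 ± 0.24. Csf1r, Mrc1 and Cd163, also made by skin macrophages, differed by 0.11, 0.38 and 0.73 and were not called. Cd163 was called without mock replicate 5 (0.89, adjusted p = 0.0216), without imiquimod replicate 5 (0.86, 0.0324) and without both (1.02, 0.00879). Of 24 macrophage genes 5 rose and 3 fell, the rises numbering 3 without any 1 of mock replicates 1, 2 or 4 or imiquimod replicates 1, 2 or 3, and 8 without imiquimod replicate 5. With the hair covariate 3 macrophage genes rose and 2 fell, with a median of -0.02 in place of 0.38, and without both replicates 5 there were 8 rises and 3 falls. Of 20 myeloid lectins and Fc receptors 6 rose and none fell, led by Fcgr4 (1.83 ± 0.22), Clec4a1 (1.73 ± 0.27) and Clec4a3 (1.4 ± 0.25), with 3 rises under the hair covariate.

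Genes used to identify neutrophils were divided. Cxcr2, the receptor for neutrophil chemokines, was 5.07, 5.15, 4.93, 5.79 and 5.02 in mock and 7.54, 7.03, 7.57, 7.13 and 6.85 in imiquimod skin, a difference of 2.03 ± 0.2, 4.09-fold higher (adjusted p = 8.78e-07). Itgam, the integrin of myeloid cells, rose by 1.88 ± 0.27. Ly6g, the defining mouse marker, was 3.07, 3.64, 3.19, 3.28 and 3.46 in mock and 2.97, 3.42, 3.0, 3.01 and 3.07 in imiquimod skin, a difference of -0.23 ± 0.22 (adjusted p = 0.604), and the granule genes Retnlg and Ngp differed by 0.05 and -0.2. Cxcr2 had no overlap between groups, and Ly6g overlapped in part at a low level. Of 18 members of the list 3 rose and none fell (1 fall without mock replicate 5), with a median of 0.10. On the 10 control arrays alone 6 rose, the additional ones being Fpr2, Mmp8 and Csf3r.

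Lymphocyte and dendritic markers gave few calls. Cd207 (langerin) of Langerhans cells was 5.6, 5.69, 6.14, 5.81 and 6.59 in mock and 6.02, 6.36, 5.81, 6.28 and 5.56 in imiquimod skin, a difference of 0.04 ± 0.18 (adjusted p = 0.94). Of 18 Langerhans and dendritic genes none was called, with a median of -0.11 and the MHC class II gene H2-Aa lowest at -0.71 (adjusted p = 0.0568). H2-Aa was called lower without mock replicate 1 (-0.86, adjusted p = 0.0276), without mock replicate 2 (-0.88, 0.0194), with quantile normalization (0.0436) and with the dimmest genes left out (0.045). The list had 2 falls without mock replicate 1 and 1 without mock replicate 2. With the hair covariate 5 of these 18 fell, H2-Aa by 1.21 (adjusted p = 0.000178). Of 21 T and NK cell genes 2 were called, Gzma (0.65 ± 0.18) and Cd5 (0.26 ± 0.08), and neither held in every fit that left out 1 array, with highest adjusted p of 0.0711 and 0.136. Cd3e differed by -0.43 ± 0.21. With the hair covariate none of the T and NK cell genes rose and 5 fell, among them Cd3e (-0.79, adjusted p = 0.0133), and 1 fell without mock replicate 1 or imiquimod replicate 2. No gene was called among 10 B and plasma cell genes, 18 mast cell, basophil and eosinophil genes (1 fall without mock replicate 2) or 9 Schwann cell genes (1 fall without mock replicate 1), and 1 of 17 endothelial genes was (3 without imiquimod replicate 5). Skint7, of the family that selects epidermal gamma delta T cells, was 6.49, 6.47, 6.42, 6.73 and 7.13 in mock and 5.24, 5.26, 4.64, 5.53 and 4.87 in imiquimod skin, a difference of -1.54 ± 0.2, 2.91-fold lower (adjusted p = 2.86e-05). Its groups were apart, and 1 rise and 2 falls were called among 11 Skint genes, with 1 fall without mock replicates 3 or 5 or imiquimod replicate 3 and 0 to 2 rises when 1 array was left out. With the hair covariate 6 Skint genes fell.

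Genes of the dermal matrix gave falls. Of 22 collagen chains 10 fell and none rose, with a median of -0.46, and 8 to 11 fell when 1 array was left out. Col1a1 was 10.63, 10.32, 10.87, 10.9 and 11.99 in mock and 9.65, 9.81, 9.5, 10.27 and 10.19 in imiquimod skin, a difference of -1.06 ± 0.25, 2.08-fold lower (adjusted p = 0.00785). Mock replicate 5 was the highest mock array, and no array overlapped. Col1a2 fell by 0.91 ± 0.23, Col3a1 by 0.94 ± 0.21 and Col14a1 by 1.1 ± 0.21. The matrix protein Fn1 fell by 1.1 ± 0.21 and the fibroblast protease Fap by 0.83 ± 0.18. Of 23 fibroblast genes 5 fell, with 2 falls without mock replicates 3 or 5 or imiquimod replicate 3 and 3 without imiquimod replicates 1, 2 or 4. Of 20 striated muscle genes Myh2 and Actn2 rose (1.33 ± 0.24 and 0.9 ± 0.22), the Actn2 call being lost with the hair covariate (adjusted p = 0.133) and on the control arrays alone (0.0527), and of 16 adipocyte genes Cidea rose (1.52 ± 0.25) and 1 fell. With the hair covariate 1 muscle gene rose and 8 fell, with a median of -0.46 in place of -0.03, and 6 adipocyte genes fell, with a median of -0.59 in place of -0.05.

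Hair and pigment genes carried large differences with few calls. Of 28 hair shaft genes 1 fell and none rose, with a median of -2.94, and 27 fell without both replicates 5, with a median of -4.54, 27 without mock replicate 5 alone and 25 without imiquimod replicate 5 alone. Krtap8-1, a keratin-associated protein of the shaft, was 12.05, 11.98, 11.37, 11.91 and 6.46 in mock and 6.16, 5.91, 3.56, 6.39 and 11.14 in imiquimod skin, a difference of -4.12 ± 1.44, 17.4-fold lower (adjusted p = 0.0732). Tyrp1, an enzyme of melanin synthesis, was 8.61, 8.4, 5.11, 8.76 and 5.37 in mock and 5.34, 5.04, 5.18, 5.51 and 8.35 in imiquimod skin, a difference of -1.37 ± 0.83, 2.58-fold lower (adjusted p = 0.354). Both replicates 5 lay with the opposite group in Krtap8-1, as in the hair mean, while in Tyrp1 mock replicate 3 was low as well. Of 13 melanocyte genes 1 fell, with 9 falls without both replicates 5, 2 without mock replicate 5 and 3 without imiquimod replicate 5. Of 32 regulators of the hair cycle 1 rose and 3 fell in the full fit, and 18 fell without both replicates 5. With only mock replicate 5 left out 11 of these regulators fell, and with only imiquimod replicate 5 left out 13 did, whereas 1 fell without imiquimod replicates 1 or 2.

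The 20 largest falls, ranked under the same rules as the rises, were of several kinds. After Retnla and Alox12e came Mrgprb3, a Mas-related receptor, at 5.99, 6.36, 7.4, 6.81 and 7.95 in mock and 4.52, 5.7, 4.09, 4.97 and 5.15 in imiquimod skin, a difference of -2.02 ± 0.33, 4.04-fold lower (adjusted p = 0.000326). Hamp2, a hepcidin gene, was 4.72, 5.09, 7.09, 5.19 and 5.9 in mock and 3.83, 3.92, 4.19, 4.09 and 3.93 in imiquimod skin, a difference of -1.61 ± 0.3, 3.04-fold lower (adjusted p = 0.00132). Both were without overlap. Dapl1, a gene of epithelial differentiation, fell by 1.6 ± 0.34, the adhesion receptor Adgra3 by 1.69 ± 0.23, the lipid transporter Abca5 by 1.52 ± 0.21 and the natriuretic peptide clearance receptor Npr3 by 1.46 ± 0.3. Trp53inp1, Cpxm2, Sema3d, Nectin3, Sorl1, Glb1l2, Akr1c18, Sccpdh and Fbxo32 had differences from -1.46 to -1.16. With Skint7, Mgl2 and Cxcl14, described above, they completed the 20 falls. In the 20 falls imiquimod replicate 3 was the lowest imiquimod array 16 times. It was the lowest in 50.5% of all 969 falls and in 21.6% of all genes tested.

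Whether the response of control skin differed from that of keratinocyte-specific knockout skin was tested as the difference of both responses, over 22180 genes. It was passed by 4 genes (0.018%), and 1497 had an unadjusted p below 0.05. Arg1, which breaks down arginine, was 7.5, 7.55, 7.39, 7.31 and 7.61 in mock and 6.34, 6.42, 6.47, 6.15 and 6.74 in imiquimod skin of control mice, where it fell by 1.05 ± 0.13, with no overlap. In knockout skin Arg1 rose by 0.55 (adjusted p = 0.00513), and the responses differed by -1.6 ± 0.19 (SE, adjusted p = 0.000723). Fetub, a fetuin, rose by 1.42 ± 0.18 in control skin and by 3.48 in knockout skin, a difference of -2.07 ± 0.25 (adjusted p = 0.000723). Cdhr1, a cadherin, rose by 0.38 ± 0.1 against 1.38, a difference of -1.01 ± 0.15 (adjusted p = 0.00549), its call in control skin being lost without imiquimod replicate 3 (0.0747) or mock replicate 1 (0.0617) and with the hair covariate (0.122). Il19, a cytokine of the IL-20 family, differed by 0.28 ± 0.23 in control skin against a rise of 2.53 in knockout skin, a difference of -2.25 ± 0.32 (adjusted p = 0.00549). All 4 changed more upward in the knockout, and the difference of responses was not called for any other gene named here.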

How the data were processed

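Total RNA of abdominal skin was hybridised to 20 Affymetrix arrays, labelled by the WT PLUS protocol from 200 ng, per the labels' protocols. The authors deposited 1 processed value for each of 41345 probe sets on each array, ranging from 1.41 to 13.33, with array medians of 4.94 to 5.04. These deposited values were taken as log2 values from this range, and the sources used here do not say how the authors corrected background, summarised and normalized them, or with which software and genome build. For the series 23521 probe sets had 1 gene symbol, 1814 several and 16010 none, and for each of 22180 single-symbol genes the probe set with the highest mean over all 20 arrays was kept (1082 genes had several). The precision is limited by the 5 arrays a group, and p-values cover the spread between these mice.

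Group means were fitted with limma 3.58.1 (R 4.3.3, lmFit and eBayes, 16 residual and 3.99 prior degrees of freedom, median SE 0.11), which was tested on simulated data first. Alternatives were control arrays alone, an intensity trend, a robust prior, array weights, quantile normalization, median centring, the mean of probe sets, the dimmest 30% of genes left out, the hair mean as a covariate, a replicate block and each array left out. Gene lists (56, with 943 genes measured), clusters and promoter motifs were chosen with earlier results of these data known, and only those with a result named here are described. Genes were named as the 20 largest rises and 20 largest falls whose groups did not overlap, as those whose response differed between genotypes, and as list members; among the members, those shown were chosen after their values were seen. Promoter windows reach 250 bases before the first listed RefSeq start (GRCm38.p6), and 2654 genes have several starts.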

Additional observations from a re-analysis of the deposited data

Results flagged for a closer look

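Of 96 groups of 5 control arrays examined for a single distant array by Dixon's test, 10 had one. Chance gives about 1 in 20 for independent groups. These groups were not independent, since genes shared arrays, the hair shaft list includes Krtap8-1 and genes shown were chosen after their values were seen. The hair shaft mean was 5.87 on mock replicate 5 (median of the other 4 mock arrays 9.97) and 9.13 on imiquimod replicate 5 (others 5.73). Krtap8-1 was 6.46 on mock replicate 5 (others 11.95), and the melanocyte gene Tyrp1 was 8.35 on imiquimod replicate 5 (others 5.26). The envelope gene Lor was 10.81 on mock replicate 5 (others 9.27). Il1f6 was 10 on imiquimod replicate 5 (others 10.91) and Sprr2e was 6.64 on the same array (others 8.43). The 3 on other arrays were Isg15 on mock replicate 4 at 4.26 (others 4.66), Cxcr2 on mock replicate 4 at 5.79 (others 5.04) and Ly6g on imiquimod replicate 2 at 3.42 (others 3.0). Thus 7 of the 10 concerned a replicate 5, with the hair shaft mean and its member Krtap8-1 both counted.

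The imiquimod response of 4 genes differed between control and knockout skin when that difference itself was tested with limma over 22180 genes. Control minus knockout response was -1.6 for Arg1, -1.01 for Cdhr1, -2.07 for Fetub and -2.25 for Il19.

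Probe sets assigned to several genes took no part in the tests, and some of them separated the 5 imiquimod from the 5 mock arrays. A probe set shared by Sprr2a1, Sprr2a2, Sprr2b and Sprr2a3 differed by 2.85. Those shared by Sprr2a1, Sprr2a2 and Sprr2a3 differed by 2.35, 2.49 and 2.49, the last pair with identical values on every array. A probe set of Sprr2i, Sprr2f and Sprr2e differed by 0.81, one of Lce1c and Lce1k by 1.28 and one of Lce1d and Lce1k by 2.4. No test was run on these.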

How the results depend on the processing

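The 1435 rises stayed within 1.5 times of that count under all 21 alternatives, from 1100 to 1624 when 1 control array was left out and at 1957 with array weights. The 969 falls ranged from 510 to 1396 when 1 control array was left out, and were 1740 with array weights and 1675 without both replicates 5. The 4 genes whose response differed between genotypes became 8 with array weights and 12 with the hair covariate, and 4 to 8 when 1 array was left out (8 without imiquimod-treated knockout replicate 3 and 7 without replicate 4, alternatives chosen after seeing the data). The cause of these shifts was not tested. Replicate numbers were not used as pairs in the full fit. Deviations of same-numbered mock and imiquimod arrays from their group means correlated at -0.333, -0.263, -0.199, -0.26 and -0.709. Arrays with different numbers were not compared in this way, so these values cannot show whether the numbers pair the samples. The fit with the replicate number as a block called 1272 rises, 764 falls and 4 differences of response. Of the 188 named genes called, 170 were called under every alternative that tested them. The call was lost for 13 with the hair covariate and for 2 without both replicates 5. No named gene changed direction where it was called in the full fit or the alternative. Signs did change among genes called in neither. With the hair covariate Tchhl1 went from -3.34 to 0.2, Crnn from -2.87 to 0.11 and Padi3 from -2.6 to 0.06. The control arrays alone gave 1258 rises and 694 falls, quantile normalization 1381 and 1170, and median centring 1651 and 677. Genes not called here may have changed by less than 5 arrays a group can show.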
